A study of Homo sapiens with 2 samples.

Results

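The S100 genes examined here were the 10 members of the S100 family named S100A2, S100A4, S100A6, S100A9, S100A10, S100A11, S100A13, S100A14, S100A16 and S100P. They were taken by gene name from the joined TPM tables, and each name matched exactly 1 of the 58174 genes listed. The data comprised 1 RNA-seq library of PLC-8024-CTR cells and 1 of PLC-8024-GDF1 cells. PLC-8024 is a human hepatocellular carcinoma (HCC) cell line. The control cells (PLC-8024-CTR) carried a control vector, and the GDF1 cells (PLC-8024-GDF1) were stably transduced by lentivirus with GDF1, a secreted ligand of the TGF-β superfamily, and selected with puromycin. The comparison asks which transcripts differ when GDF1 is overexpressed. All values are TPM, transcript abundances scaled by gene length and by library total, so that levels of different genes can be compared and added. TPM keeps no sequencing depth, so no counting error is given. Each condition had 1 library, so there was no replicate spread to set a difference against, no p-value is given, and every difference describes these 2 libraries. In bulk RNA, fewer cells that express a gene and less RNA of it per cell cannot be told apart.

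S100 proteins are small calcium-binding proteins with a pair of EF-hand loops that mostly work as dimers. Calcium binding opens a surface through which they bind partner proteins such as annexins, myosin and p53, and several are also secreted and act on receptors such as RAGE. Many of them are made in epithelial cells, and changed levels of S100A4, S100P, S100A2 and others are well known in carcinomas. Most S100 genes lie side by side in a cluster on the long arm of chromosome 1.

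Changes are the log2 of TPM + 1 in the GDF1 cells over TPM + 1 in the control cells, and genes under 1 TPM in both libraries were set aside. A gene is said to have risen or fallen where this change passed 2-fold. Of the 10 S100 genes, 9 reached 1 TPM. S100A4 and S100A2 rose, S100A13 fell, and the other 6 stayed within 2-fold. Over all 14929 genes with at least 1 TPM, 4.82% rose and 9.61% fell. The median change of the 9 S100 genes was 0.41 on the log2 scale, against -0.20 for all genes tested. Their median absolute change of 0.45 was close to that of all genes, 0.44. Of the 9 genes, 5 were higher and 4 lower in the GDF1 cells. The median was the value of S100A10, the smallest of the higher ones, and the next value down was -0.24, of S100A14. The middle of the S100 changes thus lay higher than that of all genes but rested on this near-even split, while their size was similar. Rescaling the GDF1 library so that the median log2 ratio of genes with at least 5 TPM was 0 multiplied its values by 1.15, which adds up to 0.21 to a log2 change. On that scale the same numbers of S100 genes rose and fell, and 6.97% of all genes rose and 6.85% fell.

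The sequences before the transcription starts of the 3 genes past 2-fold are shown because SMAD proteins, which carry the signal of TGF-β superfamily ligands, bind short CAGA motifs. RefSeq (GRCh38.p14) gave windows for all 10 genes, 14 in all, because some genes have several starts. Only the 250 bases before each start were used, all sequences read 5′ to 3′ on the strand of the gene, and all of those shown lie on the minus strand. Capitals mark CAGAC or its reverse complement GTCTG (the CAGA motif) and TGANTCA (the AP-1 motif, the same on both strands). Each motif was searched on both strands and separately, so matches may overlap.
S100A4, chr1:153545807-153546056: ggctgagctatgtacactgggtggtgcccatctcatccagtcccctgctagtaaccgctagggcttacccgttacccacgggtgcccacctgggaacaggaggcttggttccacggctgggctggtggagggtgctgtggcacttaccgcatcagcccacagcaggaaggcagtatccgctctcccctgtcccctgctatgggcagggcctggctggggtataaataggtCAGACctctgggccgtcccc
S100A2, upstream start, chr1:153565845-153566094: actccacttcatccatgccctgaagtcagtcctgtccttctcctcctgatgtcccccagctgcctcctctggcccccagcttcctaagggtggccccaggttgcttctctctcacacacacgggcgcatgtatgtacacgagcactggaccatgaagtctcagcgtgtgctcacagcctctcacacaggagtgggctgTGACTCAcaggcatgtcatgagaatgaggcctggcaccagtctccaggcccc
S100A2, downstream start, chr1:153563888-153564137: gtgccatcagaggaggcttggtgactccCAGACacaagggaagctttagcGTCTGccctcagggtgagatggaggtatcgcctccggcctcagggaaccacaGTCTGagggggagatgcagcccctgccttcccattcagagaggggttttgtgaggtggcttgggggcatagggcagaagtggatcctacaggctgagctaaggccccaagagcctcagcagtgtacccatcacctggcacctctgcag
S100A13, first listed start, chr1:153634362-153634611: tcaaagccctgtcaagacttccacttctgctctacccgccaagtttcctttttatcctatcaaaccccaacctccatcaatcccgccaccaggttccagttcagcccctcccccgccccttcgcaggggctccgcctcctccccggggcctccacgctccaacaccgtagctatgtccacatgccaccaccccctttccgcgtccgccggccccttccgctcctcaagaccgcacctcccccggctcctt
S100A13, second listed start, chr1:153627506-153627755: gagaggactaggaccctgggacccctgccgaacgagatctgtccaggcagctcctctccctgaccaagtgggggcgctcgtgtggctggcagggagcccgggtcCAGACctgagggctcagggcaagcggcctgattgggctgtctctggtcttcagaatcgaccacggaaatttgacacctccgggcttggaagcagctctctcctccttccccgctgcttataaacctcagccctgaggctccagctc
S100A13, last listed start, chr1:153627240-153627489: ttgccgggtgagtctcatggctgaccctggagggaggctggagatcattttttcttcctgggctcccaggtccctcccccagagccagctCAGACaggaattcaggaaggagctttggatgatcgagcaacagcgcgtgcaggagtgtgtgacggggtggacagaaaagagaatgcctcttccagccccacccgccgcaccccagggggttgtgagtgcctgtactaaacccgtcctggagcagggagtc

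The S100A4 window held 1 CAGA match close to its start, just after a TATAAA match. The downstream window of S100A2 held 3 CAGA matches, and the upstream one held none but had 1 AP-1 match. The first window of S100A13 held no CAGA match, and the second and the last held 1 each. A CAGA match was found in 8 of the 14 windows, and 38.0% of all 35116 RefSeq windows held one. Among the 10 S100 genes, 6 had a match in at least 1 window. The share of all genes with a match was not computed, and genes with several windows have more chances of one. The genes without a match were S100A6, S100A9, S100A14 and S100P. The AP-1 motif was found in 1 of the 14 windows, against 6.57% of all windows, and TATAAA or its reverse complement in 4 of 14, against 10.7%. These matches describe letters in a window and do not show that a factor binds there, nor which start is used in these cells.

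The S100 genes lay at very different levels, from 0.83 TPM for S100A6 to 1977 TPM for S100P in the GDF1 cells. The order in the control cells was S100A9, S100P, S100A11, S100A14, S100A10, S100A16, S100A13, S100A4, S100A2 and S100A6. In the GDF1 cells S100P came first and S100A11 second, S100A9 took the third place, S100A10 and S100A14 exchanged places, and the order of the remaining genes was unchanged. In both libraries 5 S100 genes lay above 500 TPM, a level that 273 genes passed in the control cells and 293 in the GDF1 cells. The 10 genes together amounted to 5604 TPM in the control cells and 6216 TPM in the GDF1 cells, which is 0.560% and 0.622% of the library. The 3 most abundant genes made up 69.3% and 72.9% of these sums. Neighbours in this order cannot be separated by replicate spread, which was not measured.

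**Figure D1:**
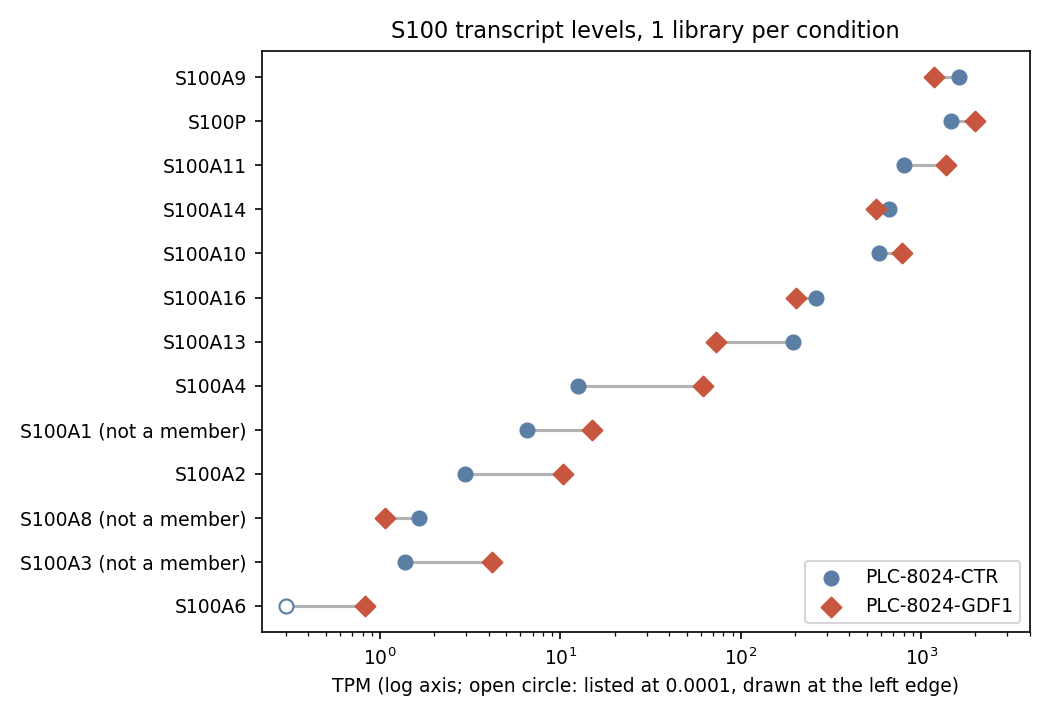
TPM of the 10 S100 genes and of the 3 other S100 genes with at least 1 TPM (marked as not a member), on a log axis, in PLC-8024-CTR (circles) and PLC-8024-GDF1 (diamonds), 1 library each and no error bars. S100A4 moved from 12.5 to 61.4 TPM and S100A13 from 194.3 to 73.1 TPM, while the 6 genes at 202.3 TPM or more in both libraries moved within 2-fold, and the open circle is S100A6, listed at 0.0001 TPM.

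S100A4 showed the largest change of the 9 genes tested. S100A4, also called metastasin, binds the heavy chain of non-muscle myosin IIA and is known for its association with cell motility and metastasis. It rose from 12.5 TPM in the control cells to 61.4 TPM with GDF1, which is a log2 change of 2.21 and a plain ratio of 4.92. Its rise ranked 76 among the 14929 genes tested, and in the list of all genes ordered by level S100A4 moved from place 6164 to place 1976. On GRCh37, S100A4 (ENSG00000196154) spans 153516089 to 153522612 of chromosome 1, on the minus strand. S100A3 lies within that span on the same strand, at 1.38 TPM and 4.19 TPM. The annotated exons of the pair share 0 bases, and with their TPM added up the log2 change was 2.16. The level of S100A4 stayed far below that of the abundant S100 genes, since even in the GDF1 cells it made up 0.99% of the S100 sum.

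S100A2, a mainly nuclear S100 protein that binds p53, rose from 2.96 TPM in the control cells to 10.3 TPM with GDF1. The log2 change was 1.51 and the plain ratio 3.47. It ranked 242 among the genes tested by size of rise. S100A2 (ENSG00000196754, chromosome 1 of GRCh37, 153533584 to 153540366) overlaps no other listed gene. Both values are low, and TPM does not tell how many reads stood behind them.

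S100A13 was the S100 gene that fell. Its protein takes part in the secretion of FGF1 and IL-1α, which lack a signal peptide. S100A13 (ENSG00000189171, chromosome 1 of GRCh37, 153591263 to 153603836) fell from 194.3 TPM in the control cells to 73.1 TPM with GDF1, which is a log2 change of -1.40. It ranked 592 among the genes tested by size of fall. FGF1 and IL1A were both listed at 0.0001 TPM, which stands for 0, in each library, and SYT1, whose protein joins FGF1 and S100A13 in that release, at 0.34 and 0.60 TPM.

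S100A13 overlaps other genes. The exons of the long non-coding RNA gene AL162258.1, on the same strand, cover 24.2% of the exon bases of S100A13, and those of S100A1, on the opposite strand, cover 10.6%. AL162258.1 was listed at 18.8 TPM and 27.4 TPM and S100A1 at 6.54 TPM and 15.0 TPM, so both were higher where S100A13 was lower. With the whole TPM of the 3 genes added up, the level was 219.7 TPM in the control cells and 115.5 TPM with GDF1, a log2 change of -0.92, which does not pass 2-fold. How reads in the shared bases were divided was not tested. Whether the authors' counting used strand is not given in the sources used here, so reads of S100A13 and S100A1 in shared bases may not be told apart.

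The abundant S100 genes moved less. S100A11, which binds annexin A1 and is found in many epithelial tumours, was listed at 798.9 TPM in the control cells and at 1371 TPM with GDF1, which is a log2 change of 0.78. S100P, first found in placenta and raised in many carcinomas, where it binds ezrin and RAGE, was listed at 1467 TPM and 1977 TPM, a log2 change of 0.43. S100A10, the member that does not bind calcium and pairs with annexin A2, was listed at 585.3 TPM and 778.4 TPM, a log2 change of 0.41. These 3 genes were higher in the GDF1 cells, and in absolute terms S100A11 gained 572.3 TPM and S100P 509.3 TPM, far more than S100A4, which gained 48.9 TPM. With rescaled TPM the log2 change of S100A11 was 0.99, just under 2-fold.

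The other 3 abundant genes were lower in the GDF1 cells. S100A9, a subunit of calprotectin that is typical of neutrophils and monocytes, was listed at 1617 TPM in the control cells and at 1181 TPM with GDF1, which is a log2 change of -0.45. S100A16, a widely expressed member, was listed at 261.6 TPM and 202.3 TPM, a log2 change of -0.37. S100A14, an epithelial member with degenerate calcium loops, was listed at 663.6 TPM and 560.4 TPM, a log2 change of -0.24. S100A14 thus lay next to the median of all genes (-0.20), and with rescaled TPM its change was -0.04. With rescaled TPM the changes of S100A9 and S100A16 were -0.25 and -0.16.

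S100A6, or calcyclin, was listed at 0.0001 TPM, the value that stands for 0, in the control cells and at 0.83 TPM with GDF1. It is an abundant protein of many epithelial and mesenchymal cells, but it was the least abundant of the 10 genes here and did not reach 1 TPM. No fold is given against a value that stands for 0. S100A6 (ENSG00000197956, chromosome 1 of GRCh37, 153507075 to 153508720) shares 3.81% of its exon bases with BX470102.1 on the opposite strand, which was listed at 0.0001 TPM in both libraries. A listed 0 can be a failed estimate. All 77 cytosolic ribosomal protein genes looked at for comparison had at least 1.17 TPM in each library. Values of other genes cannot show whether that of S100A6 was estimated correctly.

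**Figure D2:**
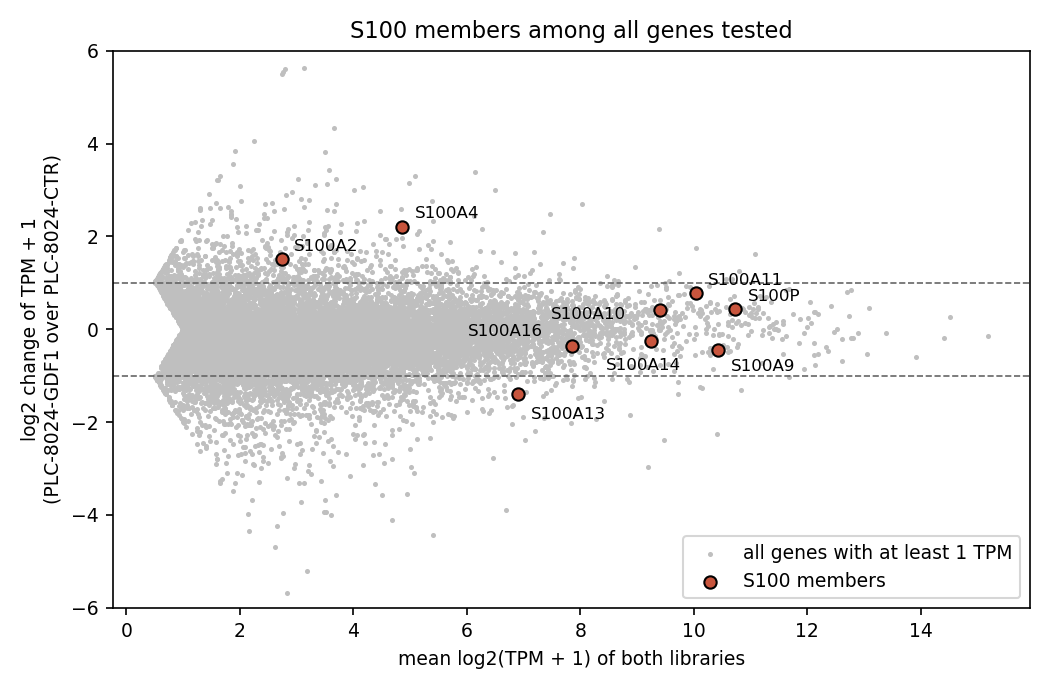
Log2 change of TPM + 1 (PLC-8024-GDF1 over PLC-8024-CTR) against the mean log2(TPM + 1) of both libraries for the 14929 genes with at least 1 TPM (grey) and the 9 S100 genes among them (red); dashed lines mark 2-fold, and 1 gene lies beyond the axis limit of 6. S100A4, S100A2 and S100A13 lie outside the dashed lines, and the 6 others lie inside.

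The S100 genes on chromosome 1 were then followed in their order along the chromosome. Of the 10 genes, 9 lie there, between 151955391 and 153604515 of GRCh37 when S100A1 is included, a span of 1.65 Mb. S100A10 (151955391 to 151966335) and S100A11 (152004982 to 152020383) come first, followed by S100A9 (153330330 to 153333499, on the plus strand). S100A16 (153579362 to 153585621) and S100A14 (153586731 to 153589462) lie next to S100A13. S100P lies alone on chromosome 4 (6695605 to 6698897, plus strand). S100A6, S100A5, S100A4, S100A3 and S100A2 follow each other within 33.3 kb, and each of these 5 genes was higher in the GDF1 cells. S100A3 rose from 1.38 to 4.19 TPM (log2 change 1.13). S100A6, at 0.0001 and 0.83 TPM, and S100A5, at 0.0001 and 0.32 TPM, did not reach 1 TPM in either library. After a gap of 38996 bases, S100A16, S100A14 and S100A13 follow each other within 24.5 kb, and all 3 were lower in the GDF1 cells. Only S100A13 passed 2-fold. The log2 changes of S100A16 and S100A14 were -0.37 and -0.24 (-0.16 and -0.04 with rescaled TPM), against a median of -0.20 for all genes. S100A1, which overlaps the start of S100A13 on the opposite strand, rose from 6.54 to 15.0 TPM (log2 change 1.09). S100A10 and S100A11, at the other end of the cluster, were both higher. Genes side by side can share reads, sequence context and position, so they are not independent observations.

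The 5 higher genes of the first block were all low, with at most 61.4 TPM, and the 3 lower genes of the second block had at least 73.1 TPM in both libraries. Among the 58 other genes with at least 1 TPM from 1 Mb before S100A10 to 1 Mb after S100A1, 4 rose, 2 fell and 52 stayed within 2-fold, with a median log2 change of 0.02. Of the 4 that rose, SHE and TDRD10 were listed at 0.0001 TPM in the control cells. With GDF1 they were listed at 1.91 and 2.07 TPM, so they passed the 1 TPM filter only through the library in which they were high. Over all genes tested, 4.82% rose and 9.61% fell. The nearest non-S100 gene with at least 1 TPM to the S100A6 to S100A13 stretch was AL162258.1, with a log2 change of 0.52. The nearest to S100A10 and S100A11 was THEM4, at 17.1 and 11.1 TPM. The nearest gene to S100P was MRFAP1L1, at 44.3 and 30.3 TPM, a log2 change of -0.53.

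**Figure D3:**
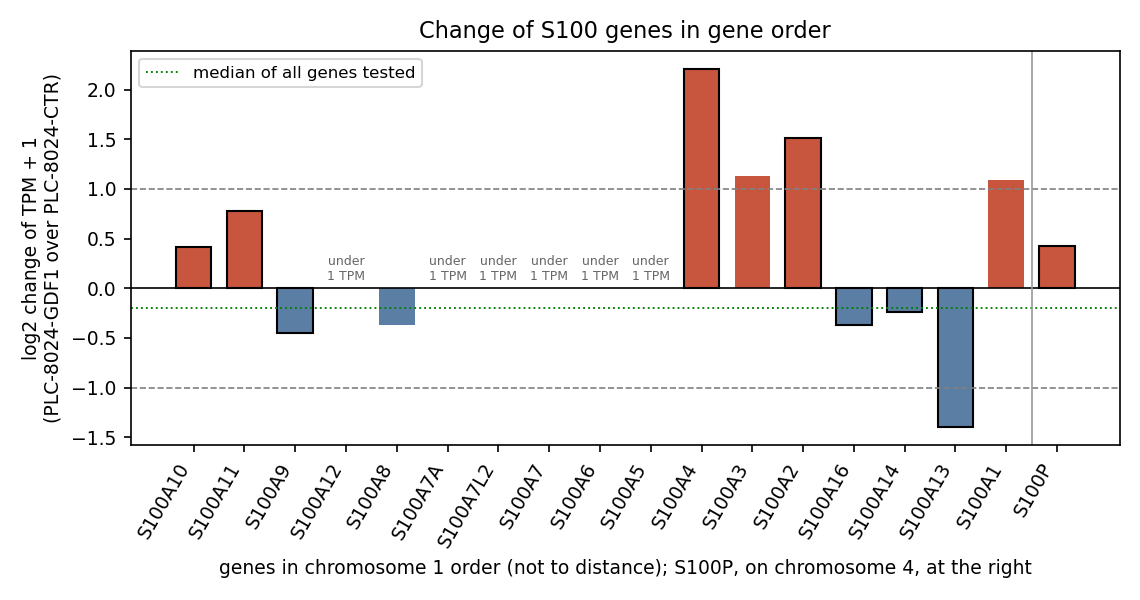
Log2 change of TPM + 1 (PLC-8024-GDF1 over PLC-8024-CTR) for S100 genes in their order on chromosome 1 (not to distance), with S100P of chromosome 4 at the right; outlined bars are the genes examined, dashed lines mark 2-fold and the dotted line is the median of all genes tested, -0.20. S100A4, S100A3 and S100A2 stand together above 2-fold, and S100A16, S100A14 and S100A13 together below 0; genes under 1 TPM in both libraries have no bar.

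The rest of the family was mostly silent. Of 11 further S100 genes, 3 reached 1 TPM. S100A1 and S100A3 rose, as above, and S100A8 was listed at 1.65 TPM in the control cells and at 1.06 TPM with GDF1. S100A5 and S100A7 were listed at 0.0001 TPM in the control cells and at 0.32 and 0.25 TPM in the GDF1 cells. S100A7A, S100A7L2, S100A12, S100B, S100G and S100Z were listed at 0.0001 TPM in both libraries. The 7 fused-type genes of the same cluster (CRNN, FLG, FLG2, HRNR, RPTN, TCHH and TCHHL1), which carry an S100 domain in large proteins of the cornified skin layer, were all under 1 TPM, at most 0.02 TPM.

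S100A8 and S100A9 normally form the calprotectin heterodimer. In these libraries S100A9 exceeded S100A8 979-fold in the control cells and 1116-fold in the GDF1 cells. These ratios rest on the low S100A8 values of 1.65 and 1.06 TPM, whose counting error is unknown. Because S100A9 is typical of myeloid cells, a list of 8 myeloid markers was looked at. PTPRC, FCGR3A and TYROBP were listed at 0.0001 TPM in both libraries, and CD14 (0.50 and 0.52 TPM), ITGAM (0.49 and 0.22 TPM) and CSF1R (0.073 and 0.059 TPM) did not reach 1 TPM. LYZ, at 298.0 and 213.5 TPM, and CD68, at 33.1 and 13.2 TPM, made up nearly all of the summed 332.1 and 227.5 TPM of the list. LYZ and CD68 were thus listed lower with GDF1, as S100A9 was, but of these genes only CD68 passed 2-fold. The log2 change of LYZ was -0.48, but -0.27 with rescaled TPM and -0.04 with a trend on GC content subtracted. The part of LYZ and CD68 in the S100A9 level was not tested. Of 7 fibroblast markers, which are of interest because fibroblasts express S100A4, COL3A1 was the one that reached 1 TPM (3.22 and 1.23 TPM). DCN, COL1A2 and PDGFRA were listed at 0.0001 TPM in both libraries, and LUM was listed at 0.0001 and 0.022 TPM. COL1A1 (0.20 and 0.84 TPM) and PDGFRB (0.37 and 0.51 TPM) were listed higher with GDF1 but stayed under 1 TPM, whereas COL3A1 was lower. The summed level of the list was 3.80 TPM in the control cells and 2.61 TPM with GDF1, and its part in the S100A4 level was not tested.

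The identity of the cells was checked in the same way. All 12 hepatocyte markers reached 1 TPM in the control cells, from TTR at 7.17 TPM to SERPINA1 at 5308 TPM, and 8 of them fell in the GDF1 cells (4 with rescaled TPM). Over all genes tested, 9.61% fell (6.85% with rescaled TPM). The simple epithelial keratins KRT8 (1424 and 1777 TPM) and KRT18 (1006 and 1225 TPM) were high in both libraries. Of the 8 epithelial markers 6 reached 1 TPM, and EPCAM and ESRP1 did not. CDH1 fell from 10.4 to 0.33 TPM and ESRP2 from 12.7 to 1.98 TPM, CLDN7 rose from 18.6 to 64.0 TPM, and CLDN4 was listed at 13.8 and 14.3 TPM. Of the introduced gene, GDF1 was listed at 2.096 and 4.64 TPM, while CERS1, within whose span it lies, was listed at 13.3 and 9612 TPM.

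The binding partners of the S100 proteins were taken next. Of 28 partners and receptors, 21 reached 1 TPM, of which 1 rose, 4 fell and 16 stayed within 2-fold, with a median log2 change of -0.14. Over all genes tested, 4.82% rose and 9.61% fell. With rescaled TPM 3 partners and receptors fell, against 6.85% of all genes. Their split of 9 higher and 12 lower became 11 and 10, and their median turned to 0.06. Annexin A2 is the partner of S100A10, and ANXA2 was listed at 596.9 TPM in the control cells and at 824.2 TPM with GDF1. The TPM of S100A10 over that of ANXA2 was thus 0.98 in the control cells and 0.94 in the GDF1 cells, so the transcripts of the complex were listed at nearly equal levels in both libraries and both were higher with GDF1. AHNAK, a large scaffold protein that binds the same complex, was listed at 9.07 and 13.01 TPM. ANXA1, the partner of S100A11, was listed lower with GDF1, at 41.6 and 29.8 TPM. Its log2 change was -0.47, but -0.27 with rescaled TPM and -0.0002 with a trend on GC content subtracted. In listed TPM the ratio of S100A11 to ANXA1 was 19.2 in the control cells and 46.0 in the GDF1 cells.

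MYH9, which encodes the myosin heavy chain bound by S100A4, was listed at 74.7 TPM in the control cells and at 44.4 TPM with GDF1 (log2 change -0.74). MYH10, a related heavy chain, fell from 9.04 to 3.66 TPM (log2 change -1.11, and -0.94 with rescaled TPM). PPFIBP1, which encodes the S100A4 binder liprin-β1, fell from 5.11 to 0.84 TPM (log2 change -1.73). These 3 partners were lower in the library in which S100A4 was higher. IQGAP1, a scaffold protein bound by S100P, was the partner that rose, from 9.50 to 28.2 TPM (log2 change 1.47). EZR, which encodes ezrin, was listed at 91.9 and 83.1 TPM, a small difference whose direction turns with rescaled TPM. ANXA5 fell from 156.1 to 45.7 TPM (log2 change -1.75), and ASIC1, a channel whose surface level S100A10 supports, fell from 5.99 to 1.32 TPM. CACYBP, named for binding calcyclin, was listed at 66.2 and 90.3 TPM, although S100A6 itself did not reach 1 TPM.

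Among receptors of secreted S100 proteins, AGER, which encodes RAGE, was listed at 10.6 TPM in the control cells and at 11.8 TPM with GDF1. BSG, which encodes basigin, a receptor of S100A9, was listed at 1808 and 2233 TPM, more than any of the 10 S100 genes. TLR4, a receptor of calprotectin, was listed at 0.0001 and 0.01 TPM. Neither AGER nor BSG passed 2-fold.

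Other EF-hand genes, which share the calcium-binding fold but not the family, were used for comparison. Of 30 such genes, 29 reached 1 TPM, of which 2 rose, 1 fell and 26 stayed within 2-fold. Over all genes tested, 4.82% rose and 9.61% fell. The median log2 change of the EF-hand genes was -0.29, with 20 lower and 9 higher in the GDF1 cells. With rescaled TPM 16 were lower and 13 higher, with a median of -0.08. RCN1 rose from 10.6 to 69.2 TPM and RCN3 from 90.2 to 221.5 TPM, whereas RCN2 fell from 15.7 to 5.78 TPM. These 3 genes encode reticulocalbins, EF-hand proteins of the secretory pathway. CALM2 (406.4 and 284.8 TPM) and CALM3 (180.7 and 124.8 TPM), which encode the calcium sensor calmodulin, stayed within 2-fold and were both listed lower in the GDF1 cells. Their log2 changes were -0.31 and -0.32 with rescaled TPM, and -0.04 and -0.39 with a trend on GC content subtracted. The median of the 9 S100 genes, 5 of them higher and 4 lower, thus lay above that of their partners and of the other EF-hand genes. No test of this difference was made.

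**Figure D4:**
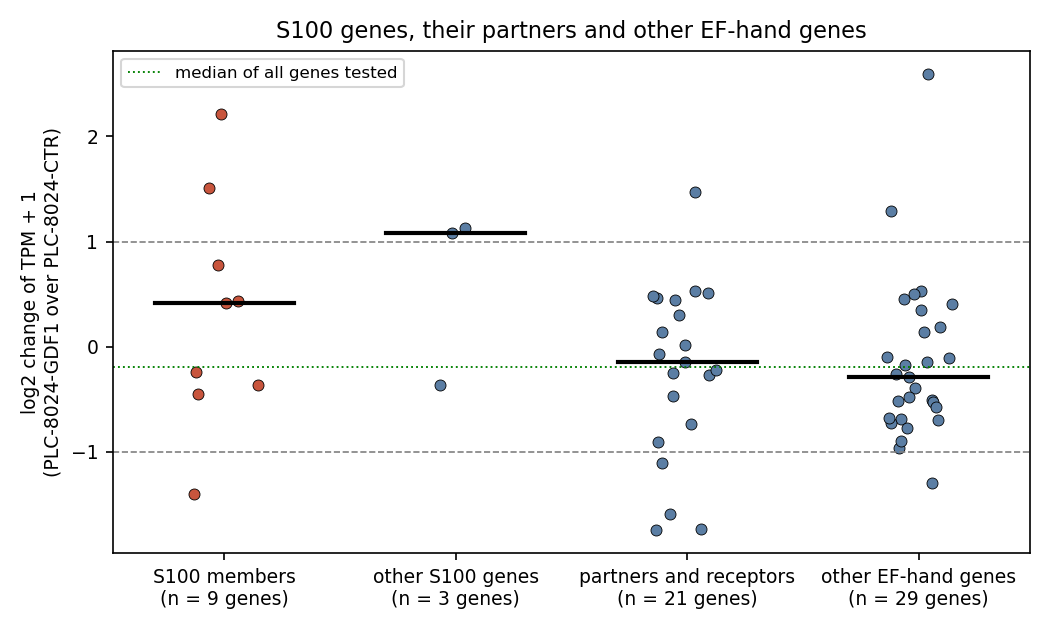
Log2 change of TPM + 1 (PLC-8024-GDF1 over PLC-8024-CTR) of each gene with at least 1 TPM in 4 lists, with the list median as a black bar, 2-fold as dashed lines and the median of all genes tested (-0.20) as a dotted line; points are shifted sideways at random. The medians are 0.41 for the S100 genes examined, 1.09 for the 3 other S100 genes, -0.14 for partners and receptors and -0.29 for other EF-hand genes.

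The S100 genes share further properties. Their longest annotated transcripts run from 471 bases (S100P) to 2184 bases (S100A13), all shorter than the median of 3595 bases for the 11792 protein-coding genes tested. Their GC content ranges from 47.5% (S100A10) to 60.2% (S100A6), against a median of 49.4%, and all but S100A10 lie above it. With the trend of the change on GC content subtracted, S100A4 changed by 2.36, S100A2 by 1.70 and S100A13 by -1.24 on the log2 scale, and each of the 9 genes kept its direction. The part of transcript length in these changes was not tested.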

How the data were processed

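RNA-seq was performed on 1 library of PLC-8024-CTR cells and 1 of PLC-8024-GDF1 cells. The authors isolated poly(A) RNA, sequenced it in paired ends, filtered reads with Trimmomatic 0.36, aligned them to hg19 with HISAT2 2.1.0 and quantified genes with StringTie 1.3.3b. The deposited TPM tables list 58174 genes by Ensembl identifier, with 0.0001 in place of 0, although the methods name the refGene annotation. The TPM values summed to 999990 and 999995, and depth is unknown.

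The tables were joined on the gene identifier. Changes used a pseudocount of 1 and left out genes under 1 TPM in both libraries. No test was possible with 1 library per condition. Positions, exons and transcript GC content came from GENCODE v44 on GRCh37, the build of the files. Promoter windows came from RefSeq on GRCh38.p14, and no coordinates were converted. A GC trend was fitted by lowess (span 0.3). The calculations were tested on simulated data with planted changes far past 2-fold and without a pseudocount. That test did not cover changes near 2-fold or the pseudocount of 1.

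The S100 genes and all lists were chosen with earlier results of these data known. All 10 S100 genes were named, other S100 and fused-type genes with at least 1 TPM, partners and other EF-hand genes past 2-fold with set ones (ANXA1, ANXA2, AHNAK, CACYBP, EZR, MYH9, AGER, TLR4, BSG and calmodulins), overlapping genes and nearest neighbours, and GDF1 and CERS1. Marker lists served as checks. FGF1, IL1A, SYT1, IL6R, NPR1, SHE and TDRD10 fall outside this rule and were named with their values known. So were the other S100 and fused-type genes under 1 TPM. A gene that the rule names is not reported here. As alternatives, other pseudocounts, filters and scalings, the GC trend removed and overlapping genes added up were tried. Python 3.11.15, numpy 2.4.6, pandas 2.3.3, statsmodels 0.14.6 and matplotlib 3.10.9 were used.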

Additional observations from a re-analysis of the deposited data

How the results depend on the processing

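No paired analysis was possible because there was a single library on either side. Over the 9 S100 genes with at least 1 TPM and 5 alternatives (a pseudocount of 0.1, the plain ratio, rescaled TPM, the GC trend removed and overlapping genes added up), 44 of 45 changes kept their direction and their side of 2-fold. The exception was S100A13, whose change was -0.92 with overlapping genes added up, so that the number of S100 genes that fell was 0 instead of 1. It differs by construction, because S100A1 and AL162258.1 were higher in PLC-8024-GDF1. Many of the other values could hardly move. Adding overlapping genes changes nothing for a gene without an overlap, and the pseudocount matters little for abundant genes. The number that rose was 2 under each of the 7 alternatives, which also included a minimum of 5 TPM and no minimum. These filters could not change that number. All 9 genes reached 5 TPM in at least 1 library, and no minimum adds only S100A6, too low to pass 2-fold with a pseudocount of 1. The median change of the S100 genes was between 0.41 and 0.66 under all 7. The summed S100 level was 1.11 times that of PLC-8024-CTR and 1.28 times with rescaled TPM. The median of the partners and receptors turned from -0.14 to 0.061 with rescaled TPM, which multiplies every value in PLC-8024-GDF1 by 1.15. TPM carries no depth, so the counting error of low values, such as those of S100A2 and S100A6, is unknown.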

Other observations

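Within 1 Mb of the S100 cluster on chromosome 1, the largest changes among other genes were those of IL6R and NPR1, both named after their values were seen. IL6R, which encodes the receptor subunit for interleukin-6, fell from 18.0 to 2.45 TPM (log2 change -2.47). NPR1, which encodes a natriuretic peptide receptor, rose from 1.38 to 9.51 TPM (log2 change 2.14).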
